A study of Mus musculus with 22 samples.

Results

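The genes described here encode cadherins, protocadherins and neural adhesion molecules. They were taken by symbol from the tables of ribosome footprints: numbered cadherins other than Cdh1 and Cdh2, protocadherins, contactins other than Cntn3, contactin-associated proteins other than Cntnap4, neurexins, neuroligins, calsyntenins 1 and 3, SynCAMs (Cadm genes), Kirrel and Kirrel2, Ncam1, Ncam2, L1cam, Chl1 and Nrcam. The choice gave 88 of the 23081 genes in those tables. Of these, 79 were also in the RNA-Seq files by Ensembl identifier, and the other 9 (Cdh7, L1cam, Ncam1, Nrxn3, Pcdh1, Pcdh7, Pcdh11x, Pcdha3 and Pcdhga11) have footprint values only.

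The study measured mRNA by poly(A)+ RNA-Seq and ribosome-protected fragments by Ribo-Seq in cultured neural stem cells from embryonic mouse cortex, to ask what the RNA-binding proteins Musashi-1 and Musashi-2 do to mRNA levels and translation. Overexpression used lines in which a reverse transactivator expressed from the Rosa26 locus drives a doxycycline (Dox) inducible Msi1 cDNA (tetO-Msi1) or Msi2 cDNA (tetO-Msi2) at the Col1a1 locus. The KH2 control line carries the transactivator and no Musashi cDNA, and its treated cells received Dox as well. Lines with floxed Msi1 and Msi2 were C4, which carries a tamoxifen-inducible Cre, and C1, which carries the same floxed alleles and no Cre, and both were compared with and without the tamoxifen metabolite 4-OHT. Dox was given at 1 µg/ml for 72 h and 4-OHT for 48 h. For RNA-Seq at E12.5, every line (KH2, tetO-Msi1, tetO-Msi2, C1, C4) was profiled untreated and treated. For E13.5 there were KH2 cells without Dox and both conditions of tetO-Msi1. That made 14 RNA-Seq libraries, 2 of them a technical pair from E13.5 tetO-Msi1 cells without Dox that were summed here. The 8 Ribo-Seq libraries came from E12.5 and left out the Msi2 line. The mice were of the 129SvJae strain. Each condition of a line was 1 culture, so the tests below take lines or stages as the repeats.

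Cadherins bind the same kind of molecule on a neighbouring cell in a calcium-dependent way and connect to catenins and actin inside the cell. The clustered protocadherins, encoded in tandem arrays of alpha, beta and gamma genes, are expressed in different combinations in different neural cells and give a cell an adhesive identity. Neurexins and neuroligins bind each other across synapses, while contactins, the L1 family, NCAMs and SynCAMs are immunoglobulin-domain molecules of neurites and glia.

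The RNA-Seq libraries held between 7889966 and 58435172 counted reads each, and the adhesion genes took 0.351% to 0.521% of them. The Ribo-Seq libraries held between 657288 and 6381242 counted footprints. In untreated KH2 cells 66.7% of the footprints fell on 1 gene, Hes7, and 875612 remained after genes above 2% of any footprint library were left out. All 8 detected neural stem and radial glia markers had a mean level above 1 CPM per kb (TMM-normalised CPM per kilobase of counted exon, called the normalised level below), and no microglial or endothelial marker did. Olig1 and Olig2, of the oligodendrocyte lineage, were also high, with lowest levels of 1012 and 436. Msi1 rose from 128 to 698 with Dox in tetO-Msi1 cells at E12.5 and from 183 to 696 at E13.5, and Msi2 rose from 153 to 830 in tetO-Msi2 cells. In C4 cells with 4-OHT Msi2 went from 123 to 13.6, while Msi1 was low without 4-OHT (29.5) and stood at 28.2 with it, so the Msi1 level did not mark the treated library. Whether the counted Msi1 exons lie in the deleted part was not tested. The corresponding values in C1 were 156 and 201 for Msi2 and 81.9 and 70.8 for Msi1.

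Neural stem cells expressed a broad but uneven set of adhesion genes. Of the 79 genes, 57 had a mean normalised level of at least 1 over the 13 libraries, 37 of at least 10 and 10 of at least 100. The most abundant was Cadm4, a SynCAM known from glia and myelin, with levels between 286 (tetO-Msi2 with Dox) and 678 (E13.5 tetO-Msi1 with Dox). Others above 100 on average were Clstn1, a calsyntenin that links membrane cargo to kinesin (285), Pcdh10 (226), Cdh13 (189), Nrcam (188), Nrxn2 (182), Cdh20 (119), Cntn1 (104) and Cdh4 (101). These lists mix classical cadherins, a delta protocadherin, synaptic organisers and axonal immunoglobulin molecules.

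Among the type II cadherins, which pattern neural territories, Cdh20 led, followed by Cdh11 (mean 52.5) and Cdh22 (50.3), and 7 of 12 members reached a mean of 1. Cdh13, T-cadherin, which is held by a lipid anchor and lacks the catenin-binding tail, was the only one of its group of 6 to reach 1. Of the delta protocadherins, Pcdh10 was followed by Pcdh17 (51.0) and Pcdh9 (26.9). All 3 neuroligins were expressed, in the order Nlgn3 (99.0), Nlgn2 (82.5) and Nlgn1 (37.3), and Nlgn2 and Nlgn3 overlapped across libraries. The SynCAMs Cadm1 (81.4) and Cadm2 (77.5) were close to each other, with ranges of 52.6 to 134 and 60.3 to 107.

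Cadherins of other tissues were at the floor. Cdh5, the cadherin of endothelial junctions, was at 0 in 10 of 13 libraries and never above 0.13. Cdh3 and Cdh16 of epithelia and Cdh15 of muscle all stayed under 0.4, and Cntnap5c was listed at 0 in every library. Cntn2, a contactin of early axons, did not pass 0.33, and Cntn4 had a mean of 1.53.

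**Figure D1:**
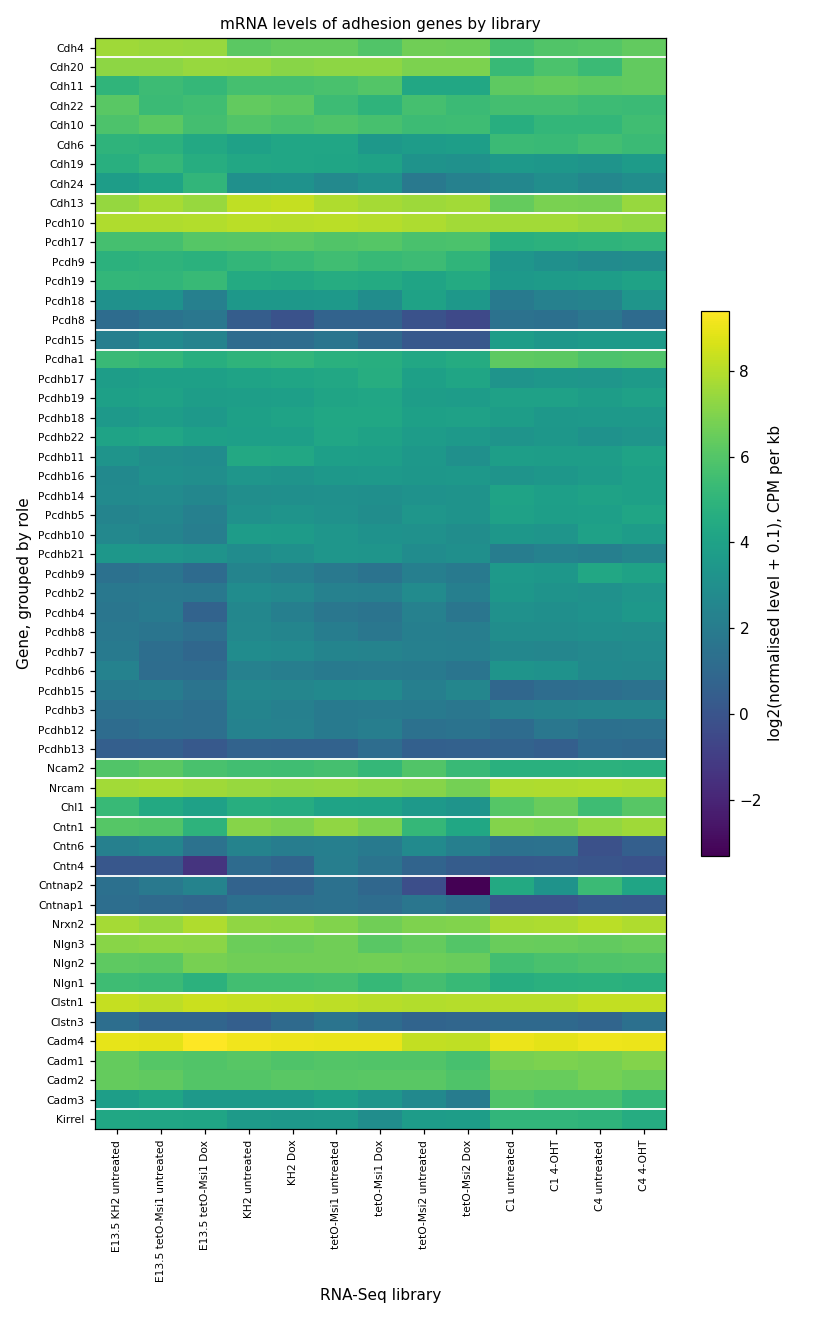
Heat map of the mRNA level of 56 adhesion genes with a mean normalised level of at least 1, as log2 of the level plus 0.1 in CPM per kb, with 1 column for each of the 13 RNA-Seq libraries and white lines between role groups. Cadm4, Clstn1 and Pcdh10 are high in every column, Cntnap2 is low in all KH2 and tetO columns and high in C1 and C4, and the beta protocadherins form a block of low to middle levels.

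Some members without an RNA-Seq row had abundant footprints. Ncam1, the neural cell adhesion molecule, had 93.4 to 152 TMM-normalised footprint CPM in the 8 libraries. Pcdh7, a delta protocadherin, had 48.3 to 64.0, and L1cam did not exceed 2.79. The Pcdhga11 row counts only the constant exons that all gamma protocadherins share and so sums the gamma cluster. It had 142 to 155 in C1 and C4 and 237 to 391 in KH2 and tetO-Msi1 cells. The Pcdha1 row likewise counts the shared constant exons of the alpha cluster.

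The beta cluster was expressed broadly rather than through 1 dominant gene. Of the beta genes in the RNA-Seq files, 20 had a mean level of at least 1, and Pcdhb1 had a mean of 0.0532. Each beta gene is a single coding exon, and near-identical stretches between them could have shared reads, so values for single beta genes are uncertain. The summed level of the 20 genes lay between 116 and 202. The top gene took 8.79% to 13.8% of the sum and was one of 8 different genes depending on the library. Pcdhb17 (mean 15.1), Pcdhb19 and Pcdhb18 (14.1) were the highest, and their ranges overlapped. For scale, 929 olfactory receptor genes, which also have few introns and are silent in these cells, had a mean level of 0.000837 to 0.0106 per gene, against a mean of 5.79 to 10.1 for the beta genes.

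Single beta genes differed between lines. Pcdhb9 was at 11.2 in C1 and 19.9 in C4 but between 3.43 and 5.20 in the 3 untreated KH2 and tetO lines at E12.5. Pcdhb15 had the opposite order, with 1.79 and 2.43 in C1 and C4 against 4.39 to 6.39. Over the 20 genes, the median absolute log2 difference between treated and untreated cells of 1 line was 0.12 to 0.25 in the 6 pairs. Between untreated KH2 and tetO-Msi1 cells at E12.5 it was 0.37, where the median over all genes with a level of at least 1 was 0.15. Between KH2 and tetO-Msi2 it was 0.24 (all genes 0.23) and between C1 and C4 0.20 (all genes 0.13), both inside the range of the treated pairs, and between tetO-Msi1 and tetO-Msi2 0.33 (all genes 0.21). Between KH2 or tetO-Msi2 and C1 or C4 it was 0.51 to 0.56, where the median over all genes was 0.68 to 0.71. Between tetO-Msi1 and C1 it was 0.84 (all genes 0.70), and between tetO-Msi1 and C4 0.80 (all genes 0.71).

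**Figure D2:**
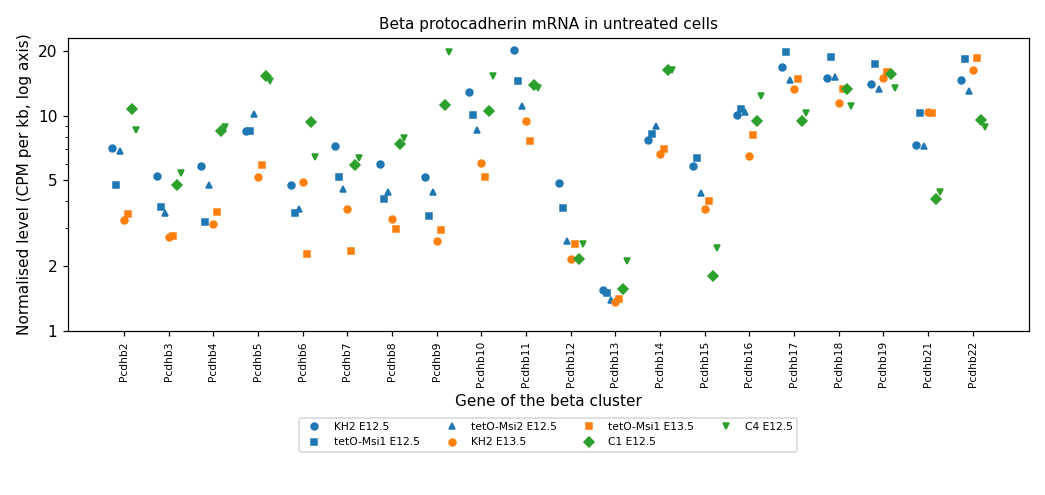
Normalised level in CPM per kb on a log axis for the 20 beta protocadherin genes with a mean of at least 1, in untreated cells, with 1 point per library, blue for KH2, tetO-Msi1 and tetO-Msi2 at E12.5, orange for KH2 and tetO-Msi1 at E13.5 and green for C1 and C4. Orange points are at or near the bottom for Pcdhb2, Pcdhb7, Pcdhb9, Pcdhb10 and Pcdhb11, and Pcdhb9 and Pcdhb15 separate the green from the blue points in opposite directions.

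Dox changed few genes of the set in tetO-Msi1 cells when both stages were fitted together with stage as a block. Of 57 tested, 3 fell (Cntn1, Pcdh18 and Cdh6) and 1 rose (Cdh24). Over all 11938 genes 3.60% were called, 1.78% higher and 1.82% lower. Cntn3, Clstn2 and Cntnap4, which the set leaves out, fell more than the 3 called genes and are given with the partners below. The median log2 change of the 57 was -0.19, with 15 above 0, and that of all genes was -0.01. Fitted with edgeR, the error of this comparison was not widened by a gene's own disagreement between stages, because the estimated prior weight was infinite.

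Cntn1 encodes contactin-1, a lipid-anchored axonal and glial adhesion molecule. Its normalised level went from 158 to 117 at E12.5 and from 62.2 to 29.8 at E13.5 with Dox, and in KH2 cells from 136 to 120. In tetO-Msi2 cells it went from 35.2 to 19.2. The level was thus lower with Dox in all 4 lines and stages, and the smallest fold was in the line with no Musashi cDNA. Because the stages differed in level, treated and untreated tetO-Msi1 cells overlapped across the stages. The log2 change in the tetO-Msi1 fit was -0.74 (SE 0.16, edgeR adjusted p = 0.000299).

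Pcdh18 is a delta protocadherin. With Dox it went from 11.9 to 7.38 at E12.5 and from 8.91 to 4.55 at E13.5, and stood at 10.9 in KH2 cells both without and with Dox. In tetO-Msi2 cells the values were 16.1 and 10.9. The log2 change was -0.83 (SE 0.18, edgeR adjusted p = 0.000371). Treated and untreated tetO-Msi1 cells did not overlap.

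Cdh6, a type II cadherin that marks territories of the early forebrain and kidney, went from 18.5 to 10.9 at E12.5 and from 28.6 to 20.7 at E13.5. It went from 15.7 to 18.2 in KH2 cells and from 12.8 to 13.8 in tetO-Msi2 cells. Its log2 change in tetO-Msi1 cells was -0.59 (SE 0.17, edgeR adjusted p = 0.0234). Cdh24, another type II cadherin, went from 6.24 to 8.67 at E12.5 and from 17.1 to 32.7 at E13.5. It went from 8.26 to 9.02 in KH2 cells and from 3.48 to 4.76 in tetO-Msi2 cells. Its log2 change in tetO-Msi1 cells was 0.75 (SE 0.18, edgeR adjusted p = 0.0023). Both genes moved the same way at each stage, while the 4 tetO-Msi1 levels overlapped across stages.

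Base composition moved with the Dox pair at E13.5. Over 43 adhesion genes whose mean RPKM reached 1, the log2 change at E13.5 and the GC content of the coding sequence had a Pearson r of 0.73, and over 10343 genes r was 0.45. At E12.5 the values were 0.09 and -0.12. These are correlations across genes of 1 library pair, and genes are not replicates. With GC-dependent offsets for each library the 4 genes were again called, where 6.48% of all genes were. When the response of KH2 cells to Dox was subtracted, in a fit over 9 libraries, no member was called. The log2 differences were then -0.54 (SE 0.27) for Cntn1, -0.82 (SE 0.30) for Pcdh18, -0.79 (SE 0.30) for Cdh6 and 0.63 (SE 0.32) for Cdh24.

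**Figure D3:**
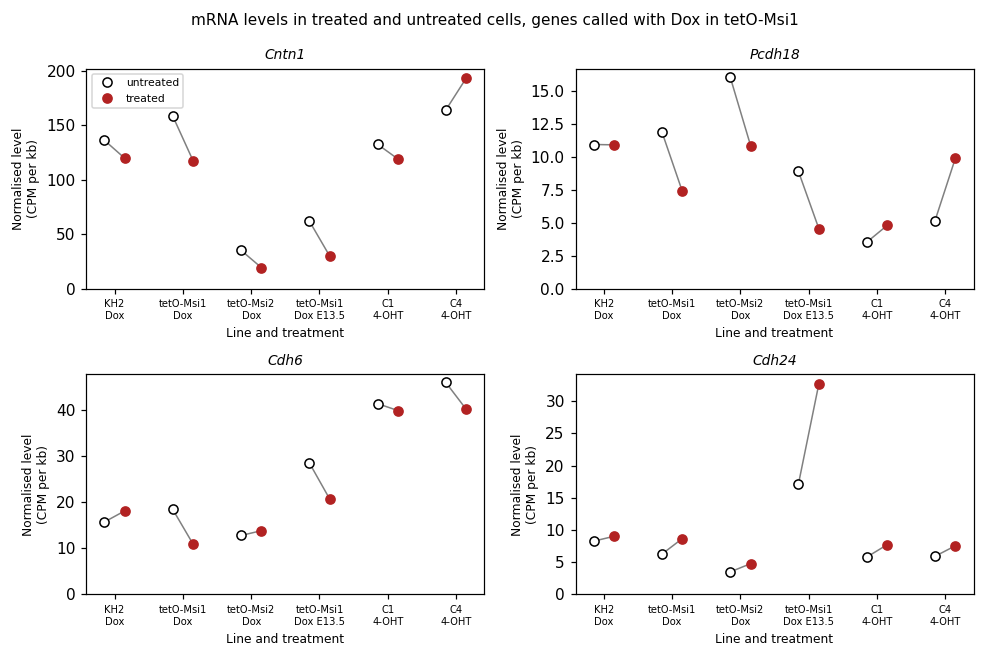
Normalised mRNA level in CPM per kb of Cntn1, Pcdh18, Cdh6 and Cdh24 in untreated (open) and treated (red) cells of each line, with 1 library per point and a line joining each pair. In the tetO-Msi1 pairs at both stages Cntn1, Pcdh18 and Cdh6 are lower and Cdh24 is higher with Dox, and Pcdh18 is higher with 4-OHT in C1 and C4.

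Musashi proteins bind short RNA motifs centred on UAG, so the 3′ UTRs of the called genes were read from the GENCODE transcripts of the same genome build. For 3 of the 4 genes a 3′ UTR of at least 50 nt was annotated, and the longest one per gene was used. The stretch of 30 bases with the most TAG triplets is shown for each, 5′ to 3′ on the mRNA strand in DNA letters, with the triplets in capitals. They lie at mm9 chr3:49548177-49548206 on the minus strand (Pcdh18), chr15:92170323-92170352 on the plus strand (Cntn1) and chr14:55250898-55250927 on the minus strand (Cdh24).
Pcdh18: tactgctTAGcaTAGttaagTAGgggcaga
Cntn1: ttcaatgcccTAGgctgTAGagtgaaggtc
Cdh24: gcgctgcggtggggTAGcgcacacgggccc
At least 3 triplets in 30 bases, as in Pcdh18, were found in 32.1% of all 19381 3′ UTRs searched, and at least 2, as in Cntn1, in 72.3%. The 5-base motifs GTAGT and ATAGT, searched on the mRNA strand, occurred 4 times in the 1311 nt of Pcdh18 and 4 times in the 2378 nt of Cntn1, and were not found in the 121 nt of Cdh24. Of the 54 adhesion genes with a level of at least 1 and such a UTR, 85.2% held a motif, at a median of 1.75 per kb. Among 11406 genes at that level 65.4% did, at a median of 0.97 per kb, and the median UTR lengths were 1315 and 1206 nt. The AT content of the UTRs was not adjusted for, and many of the 54 are related beta genes of 1 cluster. A motif match describes the sequence and says nothing on binding.

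At E12.5 alone, with the 3 Dox lines (KH2 included) fitted together, 0 of 58 adhesion genes were called by edgeR, where 0.451% of all genes were. At an unadjusted p under 0.05 there were 10, with no share of all genes recorded at that limit. DESeq2 called 1, where 0.576% of all genes were called. Cntn1 was nearest, at a log2 change of -0.48 (SE 0.10, edgeR adjusted p = 0.0586). Without the KH2 line the fit called 5, all lower (among them Cntn1, Pcdh18, Nlgn3 and Ncam2, which are named here after their values were seen), where 4.31% of all genes were called. Without tetO-Msi1 it called 1, Cntn1 (-0.51, edgeR adjusted p = 0.000432), where 0.815% of all genes were called, and without tetO-Msi2 it called 0. In single pairs with Dox, no gene of the set changed 2-fold in KH2, tetO-Msi1 at either stage or tetO-Msi2 cells. Over all genes 0.0984%, 0.354%, 0.916% and 0.387% did.

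With 4-OHT few adhesion genes were called. With line as a block, 5 of 60 rose (Cdh20, Pcdh18, Cdh13, Chl1 and Cdh10) and 1 fell (Cntnap2), where 5.50% of all 11626 genes were called, 3.14% higher and 2.36% lower. The median log2 change of the 60 was 0.03, with 36 above 0, and that of all genes was 0.00. All 6 moved the same way in C1, which has no Cre and kept Msi2 (156 and 201), as in C4. The fit over these 2 lines favours genes that change alike in both. The shared direction thus follows from how the genes were chosen, and the part of Cre was not tested. Of the 49 members compared in single pairs, 24 were above 0 in C1 and 34 in C4. All 6 calls were lost without the line block.

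Cntnap2 encodes CASPR2, a neurexin-like partner of contactins that clusters potassium channels on axons. It is counted here over 201 bases in 2 coding exons. Its level went from 20.9 to 9.05 in C1 and from 40.5 to 17.6 in C4, so the treated cells lay below the untreated in both lines. The log2 change was -1.21 (SE 0.18, edgeR adjusted p = 0.00825). On deposited RPKM the C1 pair gave a log2 ratio of -1.21 with a 95% counting interval of -1.56 to -0.87 (241 and 92 reads) and C4 gave -1.15 with -1.39 to -0.90 (372 and 202 reads).

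Cdh20, a type II cadherin, went from 38.6 to 56.5 in C1 and from 41.5 to 81.6 in C4 (log2 change 0.75, SE 0.10, edgeR adjusted p = 0.00594). Cdh13 went from 83.1 to 116 and from 109 to 175 (0.57, SE 0.08, edgeR adjusted p = 0.00825). Chl1, a close homologue of L1 that acts in neurite growth, went from 65.6 to 91.5 and from 43.8 to 67.6 (0.54, SE 0.07, edgeR adjusted p = 0.00537). For these 3 genes the treated cells of both lines lay above the untreated cells of both.

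Pcdh18 went from 3.51 to 4.80 in C1 and from 5.14 to 9.91 in C4 (log2 change 0.70, SE 0.13, edgeR adjusted p = 0.0211). Cdh10 went from 25.3 to 34.8 and from 34.0 to 44.8 (0.42, SE 0.07, edgeR adjusted p = 0.0137). Treated and untreated levels overlapped between the lines for Pcdh18 and did not for Cdh10. In single pairs at 2-fold, Cntnap2 was the 1 gene that changed in C1, where it was lower and 0.110% of all genes passed in either direction. In C4 Cdh20 was higher and Cntnap2 lower, where 1.14% passed.

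**Figure D4:**
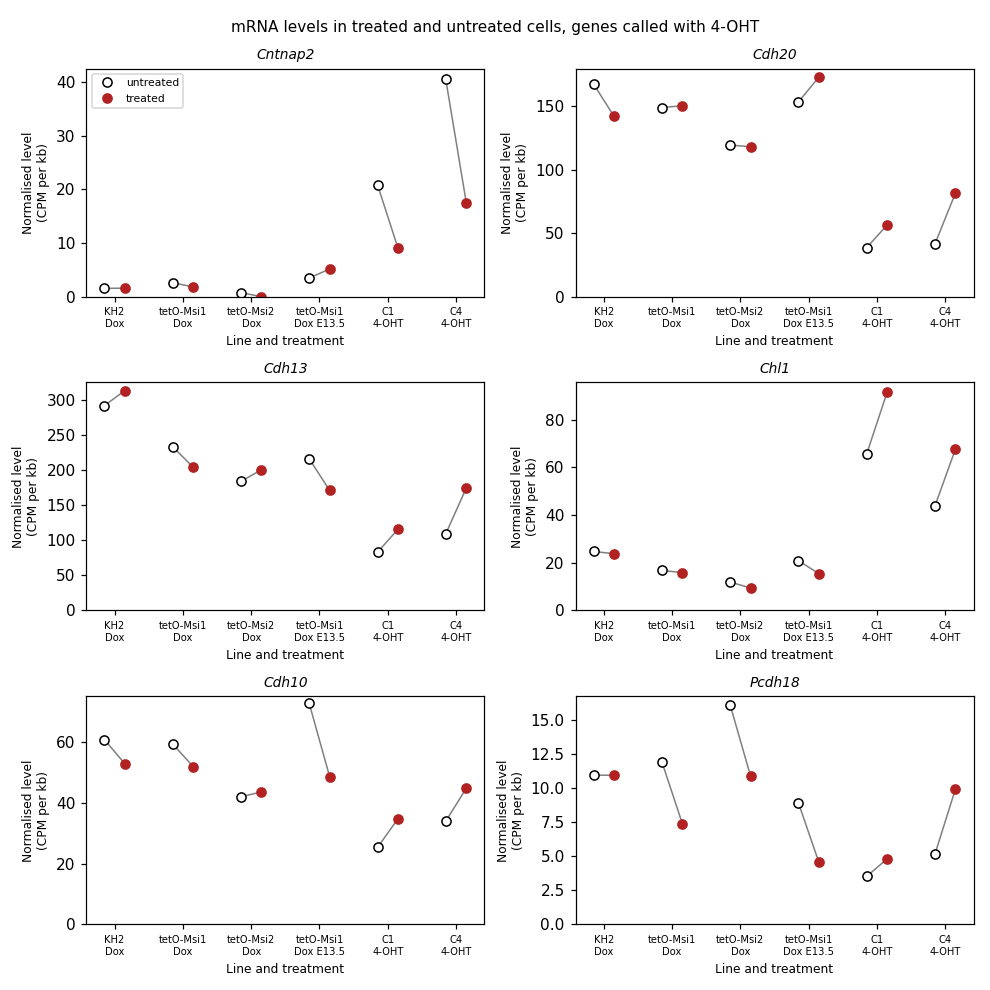
Normalised mRNA level in CPM per kb of the 6 genes called with 4-OHT, in untreated (open) and treated (red) cells of each line, with 1 library per point and a line joining each pair. Cntnap2 falls and the other genes rise in both C1 and C4, and the KH2 and tetO lines lie apart from C1 and C4 for Cntnap2 (at or under 5.16) and Cdh20 (at or above 118).

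Between stages, 32 of 57 adhesion genes differed in untreated KH2 and tetO-Msi1 cells, 12 higher and 20 lower at E13.5, with line as a block. Over all 11893 genes 50.8% were called, 25.6% higher and 25.2% lower. The cultures of each stage were separate, and the sample titles do not say whether their libraries were sequenced together. In untreated KH2 cells the counted reads were 32.0% of the read total behind the deposited RPKM at E13.5 and 15.6% at E12.5. Stage cannot be told apart from such differences between cultures and libraries. The summed neuronal markers were 55.4 to 62.9 in the E13.5 libraries and 35.0 to 55.0 in KH2 and tetO cells at E12.5. Neurod2 and Tbr1 were near 0 throughout. The summed oligodendrocyte lineage markers were 2216 to 3238 and 1631 to 2169, and the epithelial markers 0.15 to 0.88 and 1.44 to 2.92. Of the epithelial list only Epcam passed 0.16 in any library, and the keratins, Cldn4 and Esrp1 did not. The part of these markers in the result was not tested. In bulk cultures, more cells that express a gene and more RNA per cell cannot be told apart.

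The 13 called beta protocadherins were all lower at E13.5, of 20 tested, with a median log2 difference of -0.58. The largest were Pcdhb7 (-1.09), Pcdhb10 (-1.06), Pcdhb11 (-1.03) and Pcdhb12 (-0.88), with edgeR adjusted p between 0.000109 and 0.00896. Pcdhb11, for example, was at 20.2 in KH2 and 14.5 in tetO-Msi1 cells at E12.5 and at 9.51 and 7.62 at E13.5, so the stages did not overlap. Cntn1 was also lower, at 136 and 158 against 66.8 and 62.2 (log2 difference -1.22, SE 0.12, edgeR adjusted p = 1.84e-05), and tetO-Msi2 cells at E12.5 stood apart with 35.2. Cntn4 was lower too (-1.71, SE 0.40, edgeR adjusted p = 0.00469), with levels between 0.99 and 4.30.

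Cdh4, R-cadherin, a type I cadherin of neural tissue, was the member with the greatest rise. It stood at 74.4 and 83.2 at E12.5 and at 193 and 179 at E13.5 (log2 difference 1.21, SE 0.12, edgeR adjusted p = 2.69e-05). Other cadherins higher at E13.5 were Cdh24 (1.06), Cdh6 (0.78) and Cdh19 (0.68). The remaining risers named by the rule were Pcdh15, a component of hair cell tip links (1.06), and Pcdh8 (0.80). Of the 3 neuroligins Nlgn3 was higher (0.59) and Nlgn2 lower (-0.43). DESeq2 kept 24 of the 32 calls, and Pcdh8 was among the 8 it did not keep.

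The adhesion genes differed between the floxed lines and the KH2 and tetO lines about as often as other genes. In untreated cells at E12.5, 20 of 59 were higher and 21 lower in C1 and C4, where 66.3% of all 12211 genes were called, 33.0% higher and 33.3% lower. The kind of line went with sequencing depth, from which it cannot be told apart, and the sample titles name no sequencing batch. The summed neuronal markers were 59.3 to 77.0 in C1 and C4 and 35.0 to 55.0 in KH2 and tetO cells. The summed astrocyte markers were 854 to 1222 and 419 to 875, and the epithelial markers 6.24 to 10.6 and 1.44 to 2.92. The epithelial sum was carried by Epcam (highest level 10.5), and no other gene of that list passed 0.16. The part of these markers was not tested.

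Cntnap2 was at 20.9 and 40.5 in C1 and C4 and at 1.54, 2.59 and 0.73 in untreated KH2, tetO-Msi1 and tetO-Msi2 cells (log2 difference 4.13, SE 0.50, edgeR adjusted p = 0.000533). Pcdh15 (log2 difference 2.60), Cadm3 (2.39), Pcdhb9 (1.85), Chl1 (1.62) and Cntnap5b (1.48) were also higher. Cadm3, a neuronal SynCAM, was at 60.4 and 52.5 against 6.39 to 14.3. The alpha protocadherin cluster, by its constant exons, was at 74.8 and 55.5 against at most 31.4 (log2 difference 1.30, SE 0.22, edgeR adjusted p = 0.00236). None of these groups overlapped.

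Pcdh9, a delta protocadherin, was lower, at 10.2 and 6.89 in C1 and C4 against 34.1 to 44.7 (log2 difference -2.23, SE 0.23, edgeR adjusted p = 0.000279). Cdh20 was at 38.6 and 41.5 against 120 to 168 (-1.86, SE 0.16, edgeR adjusted p = 0.000127). Cntn6 (-1.67), Pcdh18 (-1.59), Cntnap1 (-1.48) and Cntn4 (-1.45) were lower as well. By role, 5 of 7 delta protocadherins and 2 of 3 contactins were lower, and 3 of 4 SynCAMs and both tested L1-family genes were higher. The beta protocadherins were split, with 7 of 20 higher and 5 lower. These counts stand beside 33.0% of all genes higher and 33.3% lower.

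In footprints more adhesion genes were lower than higher in the floxed lines. Of 67 adhesion genes, 4 were higher and 19 lower in untreated C1 and C4 than in KH2 and tetO-Msi1 cells, where 31.7% of all 12097 genes were called, 16.1% higher and 15.5% lower. The median log2 difference was -0.55 over the 67 and 0.03 over all genes. The higher genes were Cntnap2 (4.76), Chl1 (1.63), Cadm1 (1.52) and Cdh6 (1.44). Cntnap2 had 0 and 1 footprints in untreated KH2 and tetO-Msi1 cells, and Cadm1 had 4 in untreated KH2 cells. The largest of the lower differences was that of Cdh24 (-5.28, on 27 footprints over the 4 libraries). Pcdh9 (-3.03), Cdh20 (-2.71), Nlgn2 (-2.61), Cntnap1 (-2.53) and Nlgn1 (-2.28) followed, and all 3 neuroligins were lower. In untreated C4 cells Pcdh9 had 4 footprints, and Nlgn2 and Cntnap1 had 2 each. Cdh20 had 32.2 and 25.2 normalised CPM in C1 and C4 and 206 and 174 in KH2 and tetO-Msi1 cells, and Pcdh9 and Cdh20 were also lower in mRNA. Without tetO-Msi1 cells 13 members were called, where 20.2% of all genes were.

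Translational efficiency (TE) is the ratio of footprint to mRNA RPKM, here on a log2 scale relative to the median gene of each library pair. At least 20 reads in every untreated library of both assays were found for 31 genes. For 21 of them the deposited exon lengths of the 2 assays matched once 40 nt per coding exon was taken off the footprint length. For the other 10, which include Nrxn2, Pcdh10 and Nlgn3, the counted exons differed. The TE of those 10 therefore cannot be compared with that of other genes. The median TE of the 21 was 0.57, with 16 above the median gene.

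All 12 beta protocadherins measured were above the median gene, with a median of 1.34 and a range of 0.08 to 2.31. The 9 other members with matching exons had a median of -0.03, from -0.73 to 0.57. The beta genes are single exons (Pcdhb12, 2388 nt for footprints and 2348 nt for mRNA), while Cdh20 has 11 (2406 and 1966 nt). Whether this difference in counted length affects TE was not tested. Pcdhb12 was highest (2.31, SD 0.56 over 4 library pairs), followed by Pcdhb8 (1.76, SD 0.62) and Pcdhb21 (1.70, SD 0.28), and Pcdhb6 was also high (1.49, SD 0.47). Among genes with matching exons the lowest were Cadm4 (-0.73, SD 0.61), Pcdh17 (-0.37, SD 0.13) and Cdh20 (-0.30, SD 0.47). The values of Nrxn2 (-2.05, SD 0.99) and Clstn1 (-0.22, SD 0.36) were also low but rest on exons that differed between the assays. Cadm4, the most abundant mRNA of the set, thus had a TE between -0.02 in tetO-Msi1 and -1.35 in C1 cells. Reads that beta genes share may fall differently in the 2 assays, which was not tested.

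**Figure D5:**
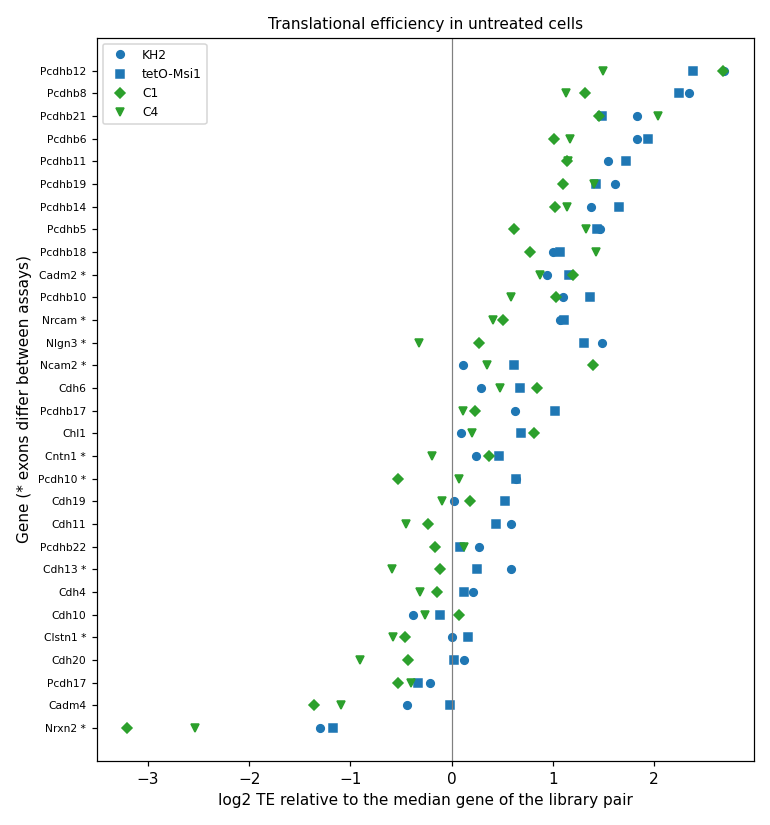
log2 TE relative to the median gene of each library pair (horizontal axis) for 30 adhesion genes with at least 20 reads in every untreated library, with 1 point per line, blue for KH2 and tetO-Msi1 and green for C1 and C4. The beta protocadherins fill most of the top of the plot, and for Nrxn2, Cadm4 and Nlgn3 the green points lie to the left of the blue.

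TE was lower in the floxed lines for 7 of 60 adhesion genes and higher for none, where 9.62% of all 12451 genes were called, 4.89% lower and 4.73% higher. The test was the interaction of assay and kind of line, and its prior weight was infinite. At an unadjusted p under 0.05 there were 16 members, and the share of all genes at that limit was not recorded. Large differences were those of Cdh24 (log2 difference -5.10, SE 1.10), Nrxn2 (-1.63, SE 0.33), Nlgn3 (-1.30, SE 0.31), Cadm4 (-0.97, SE 0.26) and Pcdh10 (-0.84, SE 0.28), with edgeR adjusted p from 4.61e-05 to 0.0289. Cdh24 had 2 and 0 footprints in untreated C1 and C4 and 10 and 15 in KH2 and tetO-Msi1 cells. Nrxn2, Nlgn3 and Pcdh10 are counted over different exons in the 2 assays (Nlgn3, 336 nt for footprints and 2238 nt for mRNA). What this does to their TE differences between kinds of line was not tested. With DESeq2 Pcdh10 was not called (DESeq2 adjusted p = 0.0545) and Cdh24 had no adjusted p.

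GC content moved with this difference: over the 31 genes the floxed minus tet TE and coding GC had a Pearson r of -0.63, and over 4196 genes r was -0.36, both across genes and as a description. With GC-dependent offsets 7 genes were again called, where 6.92% of all genes were. Of the 7, 5 were the same, and Cadm4 and Pcdh10 were not called. Without KH2 or without tetO-Msi1 cells 3 were called each time, where 3.82% and 3.17% of all genes were. Without C1 cells 11 were called, where 7.91% of all genes were.

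Treatments left footprints and TE of the adhesion genes without a call. With 4-OHT 0 of 70 were called in footprints (0.934% of all genes), with 7 at an unadjusted p under 0.05 and 0 by DESeq2. Cntnap2 had 40 footprints without and 5 with 4-OHT in C1 and 32 and 7 in C4. Cdh20 had a log2 change of 1.01 (SE 0.29) and Cntnap2 of -1.67 (SE 0.71). With Dox 0 of 62 were called in KH2 and tetO-Msi1 cells together (0.633% of all genes), with 5 at an unadjusted p under 0.05 and 0 by DESeq2. The prior weight of this Dox fit was infinite as well. Simulated 4-fold changes were recovered for 70.0% and 56.0% of genes in these 2 designs. For the TE change with 4-OHT, 0 of 63 members were called, where 0.00% of all genes were. The unadjusted count was 3, and DESeq2 called 0 members. For the unadjusted counts of these tests the share of all genes was not recorded.

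The limit for single pairs was a 3-fold change in TE with an mRNA change of less than 1.5-fold. No gene of the set met it with Dox in KH2 or tetO-Msi1 cells or with 4-OHT in C4. Over all genes 1.10%, 1.29% and 2.60% did. The set leaves out Kirrel3, which the study lists among the genes with increased TE on Msi1 overexpression. In C1 with 4-OHT 19 of 51 adhesion genes were lower, where 38.5% of all 9179 genes passed in either direction and 38.4% were lower. That pair had a shift of -1.46 in the median log2 TE over all genes. After centring on it 0 adhesion genes met the limit, where 2.31% of all genes did.

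A list of 51 adhesion partners (catenins, Fat, Celsr and nectin proteins, receptors, sialyltransferases and the relatives that the choice of members left out) gave the setting. With Dox in tetO-Msi1 cells 1 of 39 rose (Jup, plakoglobin, log2 change 0.63) and 6 fell, with the largest falls in Cntn3 (-1.69), Clstn2 (-1.53) and Cntnap4 (-1.30), where 1.78% of all genes rose and 1.82% fell. With 4-OHT 4 of 41 rose, with the largest rises in Fat4 (0.60), Jup (0.42) and Ptprz1 (0.26), and 3 fell (St8sia2, -0.69, Pvrl2, -0.45, and Celsr1, -0.33), where 3.14% of all genes rose and 2.36% fell. St8sia2 adds polysialic acid to NCAM. Between stages 9 of 41 were higher and 9 lower, led by Cbln2 (4.32), Celsr3 (1.59) and Flrt1 (1.37), and by St8sia4 (-2.28), Cntnap4 (-2.27) and Cbln1 (-1.52), where 25.6% and 25.2% of all genes were. Between kinds of line 13 were higher and 14 lower, led by Gfra1 (3.28), St8sia2 (2.90) and Ctnna2 (2.24), and by Fat3 (-2.36), Fat4 (-2.28) and Mdga1 (-2.07), where 33.0% and 33.3% of all genes were. In footprints 6 of 48 were higher and 14 lower, led by St8sia2 (3.09) and by Fat4 (-3.68), where 16.1% and 15.5% of all genes were. TE was higher for 0 of 41 and lower for 7, led by Lphn1 (-2.48), Fat1 (-2.40) and Celsr2 (-2.22), where 4.73% and 4.89% of all genes were. In the 3 Dox lines together 2 of 40 were called, Clstn2 (-1.25) and Cntnap4 (-0.72), where 0.451% of all genes were, and none in the footprint tests of Dox and 4-OHT or the TE test of 4-OHT.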

How the data were processed

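Poly(A)+ mRNA and ribosome-protected fragments were sequenced. The submitters' processing notes name TopHat, Bowtie and the mm9 build, and the tool versions are not given in the sources used here. The authors deposited, per Ensembl gene, raw read counts over a listed exon length (RNA-Seq) or over listed coding exons (Ribo-Seq). The authors also deposited RPKM values per kilobase of that length, scaled by a read total that was larger than the sum of the counts. These read totals relate differently to the counts from library to library, so levels were recomputed from the counts as TMM-normalised CPM per kb. Total counts per library ran from 7889966 to 58435172 (RNA-Seq) and from 657288 to 6381242 (Ribo-Seq), and counting intervals cover counting error only. The 2 technical libraries differed little more than sampling noise (chi-square per degree of freedom 1.69, against 11.5 between lines) and were summed.

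Adhesion genes were tested in fits over all genes with edgeR 4.0.16 (quasi-likelihood, TMM, CPM of at least 1 in 2 libraries, Benjamini-Hochberg adjusted p under 0.05) in R 4.3.3, with stage or line as a block, and with DESeq2 1.42.0 as an alternative. The scripts were tested on simulated counts. Nothing in the labels says that cultures were replicated, so p-values rest on spread between lines or stages. The prior weight was infinite for Dox in tetO-Msi1 mRNA, Dox in footprints and floxed TE. In those fits the spread was estimated over all genes, and a gene's own disagreement did not enter. Single pairs used deposited RPKM with a pseudocount of 0.5 and a mean of at least 1, and TE needed more than 5 reads. The members and gene lists were chosen with earlier results of these data known. Named genes were up to 6 members per direction in each test, up to 3 per role by mean level, members past a pair's limit, the 5 highest and 5 lowest in TE, and up to 3 partners per direction. The values of 1 gene are not reported here and are left out of the figures.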

Additional observations from a re-analysis of the deposited data

Results flagged for a closer look

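For 8 adhesion genes the log2 changes of paired libraries, taken after the median over all genes in each pair was subtracted, had opposite signs in 2 pairs under the same treatment, with counting intervals that did not include 0 and a difference of at least 0.5. Each pair is 1 library against 1, and the differences were not tested.

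With Dox at E12.5, Cdh6 changed by 0.20 in KH2 and by -0.74 in tetO-Msi1 cells, a difference of -0.94. Cdh4 changed by 0.16 and -0.43, a difference of -0.59. With 4-OHT, Cdh19 changed by -0.14 in C1 and 0.39 in C4, a difference of 0.53, and Pcdhb2 by -0.25 and 0.27, a difference of 0.51.

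Within tetO-Msi1 cells, 4 genes differed in sign between E12.5 and E13.5. Nrxn2 changed by -0.32 at E12.5 and 0.45 at E13.5, a difference of 0.77. Cdh22 changed by -0.40 and 0.17, a difference of 0.57. Cdh11 changed by 0.28 and -0.26, a difference of -0.54. Pcdhb13 changed by 0.60 and -0.41, a difference of -1.01, and is a low beta gene with wide counting intervals. Coding GC was 62.6% for Nrxn2 and 62.7% for Cdh22, and 48.9% for Cdh11 and 51.5% for Pcdhb13. Across 43 adhesion genes the change at E13.5 and coding GC had a Pearson r of 0.73. The part of GC in these differences was not tested. Outliers within a group were not looked for, because no group had 4 samples.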

How the results depend on the processing

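The labels carry no replicate numbers, so the pairing used was that of treated and untreated cells within a line or stage. The fits with such a block and 4 libraries cannot be refitted without 1 of them. Alternatives with GC correction, without genes above 2% of a library and without a line by assay term were chosen after seeing the data. For Dox in tetO-Msi1 mRNA the 4 calls became 2 with DESeq2, 0 without the stage block and 0 with the KH2 response subtracted, and 5 with GC correction. Of the 32 calls between stages DESeq2 kept 24 and the fit without the line block 28. Of the 7 calls in floxed TE DESeq2 kept 5. The 6 calls with 4-OHT became 0 without the line block. For the 3 Dox lines, 0 became 5 without the filter on low counts and 1 with DESeq2, and 0 to 5 when each line was left out. Footprints with 4-OHT went from 0 to 2 without the filter. Leaving out each line gave 13 to 29 calls for the floxed footprints and 3 to 11 for the floxed TE. In single pairs, a pseudocount of 2 RPKM gave 0 in C1 and 0 in C4, and rescaling by the median ratio gave 1 in C4 and 1 in tetO-Msi1 at E13.5. A 2-fold TE limit gave 1 in KH2, 1 in tetO-Msi1, 45 in C1 and 5 in C4, and centring gave 0 in C1. The cause was not tested. No value changed sign in a called result. Over all genes the 430 calls with Dox in tetO-Msi1 mRNA became 104 with DESeq2, 0 without the block, 9 with KH2 subtracted and 774 with GC correction. For the 3 lines 54 became 437 without the filter, 8 with GC correction, 0 without the block, and 24 to 510 with each line left out. With 4-OHT 639 became 1254 without the filter and 0 without the block. In footprints with 4-OHT 116 became 179 without the filter and 2 without the block, and with Dox 73 became 16 with RLE factors, 7 with DESeq2 and 0 without the block. Floxed footprints went from 3829 to 2347 without tetO-Msi1, and floxed TE from 1198 to 468 without KH2 and 383 without tetO-Msi1. For TE with 4-OHT 0 became 51 with DESeq2. In the footprint and TE tests 50.5% to 70.5% of simulated 4-fold changes were recovered.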
